A study of Mus musculus with 99 samples.

Results

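The genes described here encode the machinery that docks, primes, fuses and recycles synaptic vesicles: the synaptotagmins, the SNARE proteins and their partners, the complexins, the Munc13 and Rab3 proteins, and the proteins of the vesicle membrane. They were listed by name and family, 55 genes in all, and the rule itself names no measured value. Of these, 54 had a row in the table of 55291 genes, and Vamp7 was not analysed here. No read of Syt4, Syt10, Syt17 or Sv2c was found in any cell, so 50 genes gave values. They were compared between wild-type outer hair cells and outer hair cells made to express the transcription factor Tbx2.

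A vesicle is brought to the release site with the help of Rab3 and is made ready by Munc13 proteins, which open syntaxin. VAMP on the vesicle then pairs with syntaxin and a SNAP25-type protein on the plasma membrane, Munc18 proteins guide this assembly, complexins hold it, and synaptotagmins couple it to calcium. NSF and the SNAP proteins take spent complexes apart. Inner hair cells pass sound to the auditory nerve by releasing glutamate from ribbon synapses, where otoferlin takes the place of the usual synaptotagmin sensor and the need for neuronal SNAREs is debated. Outer hair cells amplify sound mechanically and carry few afferent synapses.

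Full-length cDNA was sequenced from 99 single cells of C57BL/6 cochleae. The control group held 32 wild-type outer hair cells (OHCs) of postnatal day 30, from mice of genotype Slc26a5-CreER/+; Ai9/+, in which the Slc26a5 (prestin) locus drives an inducible Cre and Ai9 is a tdTomato reporter. The other group held 67 cells of postnatal day 42, named converted inner hair cells (cIHCs), from Slc26a5-CreER/+; Rosa26Tbx2/+ mice, in which the same Cre turns on ectopic Tbx2. Cells of both kinds were picked singly for their tdTomato fluorescence. The picking protocol given for every sample names endogenous IHCs and iOHCs instead, and groups were taken from the titles here. The groups thus differ in age as well as genotype, and these cannot be told apart. No cell labelled as an endogenous inner hair cell was analysed here, so no level below is set against that cell type.

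Total counts ran from 5656512 to 9287413 per OHC and from 4677682 to 13792672 per cIHC. No animal is named in the labels, so each group counts as 1 sample, the difference has no replicate check and no test was made. Levels are pooled CPM (the summed counts of a group, scaled by its total of 242054710 or 544012348 counts to counts per 1000000), with exact Poisson 95% intervals, and each difference is a log2 ratio, cIHC over OHC, with an exact conditional binomial 95% interval. These intervals cover counting error only, since reads were amplified and carry no molecular identifier, so that they do not count molecules. A sum of 0 was set to 3 counts over the group, which gives a bound. Tbx2 itself checked the labels: it was at 0.012 CPM in the pooled OHCs, against 730.7 CPM in the pooled cIHCs. A median of 6068.5 genes had reads in an OHC against 8546 in a cIHC. Reads of Xist at 10 CPM were found in 4 OHCs and 55 cIHCs, and Y-linked reads in 24 OHCs and 12 cIHCs, so sex-linked reads differed in balance between the groups too.

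The labels were checked against marker genes. The 5 OHC markers had a summed level of 49219 CPM in OHCs against 268 CPM in cIHCs, the 7 inner hair cell markers to 1527 and 9840 CPM, and the 5 markers of all hair cells to 3767 and 3505 CPM. Because neurons use many of the same exocytosis genes, a list of 6 neuronal markers was examined too. Their sum was 255 CPM in OHCs (per cell 0 to 1037), against 302 CPM in cIHCs (21.2 to 714). Prph and Thy1, which mark peripheral and projecting neurons, were at 0 in all 99 cells. Nefl and Nefm, whose exons overlap, were higher in cIHCs, Nefm at 19.2 and 176 CPM, and Snhg11 was lower, at 182 and 2.00 CPM. Glial markers summed to 14.3 and 8.19 CPM, blood markers to 4.503 and 5.24 CPM and fibroblast markers to 15.6 and 21.7 CPM. Macrophage markers summed to 0.269 and 48.4 CPM, nearly all of it C1qb, with C1qa and Cx3cr1 at 0. Supporting cell markers summed to 5265 and 5894 CPM, nearly all of it Fbxo2. Epyc and Tectb had 99.96% and 98.6% of their OHC counts in 1 cell, with highest values of 772 and 765 CPM. Gjb2 and Gjb6 likewise had 99.6% and 99.3% of their OHC counts in 1 cell. In cIHCs, 1 cell held 91.2% of the Gjb2 counts and 73.6% of the Gjb6 counts. Whether the same OHC held these markers was not examined. The part of other cells in the results below was not tested.

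Of the 54 genes, 36 reached 10 CPM in 1 or both groups, and 18 did not. Among these 36, 13 had at least a 2-fold higher pooled level in cIHCs, which is 36.1%, against 26.3% of the 10041 genes of the whole table that reached 10 CPM. A 2-fold or larger difference the other way was found for 3, or 8.33%, against 14.3% of all genes. The remaining 20 lay within 2-fold. The median log2 ratio of the 36 was 0.29, beside 0.25 over all 10041 genes. Of the 36, 9 reached 10 CPM in cIHCs but not in OHCs and 2 in OHCs but not in cIHCs, so those were bound to differ. The 25 genes that reached it in both groups had a median log2 ratio of 0.09, and 76% of them lay within 2-fold, beside 0.15 and 75.5% of the 7430 genes that did so in the whole table. The shares of the list were thus near those of the whole table among genes present in both groups, and the members past 2-fold were spread over 10 of the 13 families.

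The 13 genes with the higher level in cIHCs were Syt1, Syt6, Syt9, Syt11, Syt14, Stx1a, Stx2, Vamp3, Snap29, Unc13b, Sv2b, Syn3 and Dnajc5b. The 3 with the lower level were Stxbp5, Cplx2 and Syn1. In no gene of the 36 did the ranges of the single cells of the 2 groups stay apart, where 0.0797% of all genes had ranges that did not overlap with cIHCs higher and 0.0896% with cIHCs lower.

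**Figure D1:**
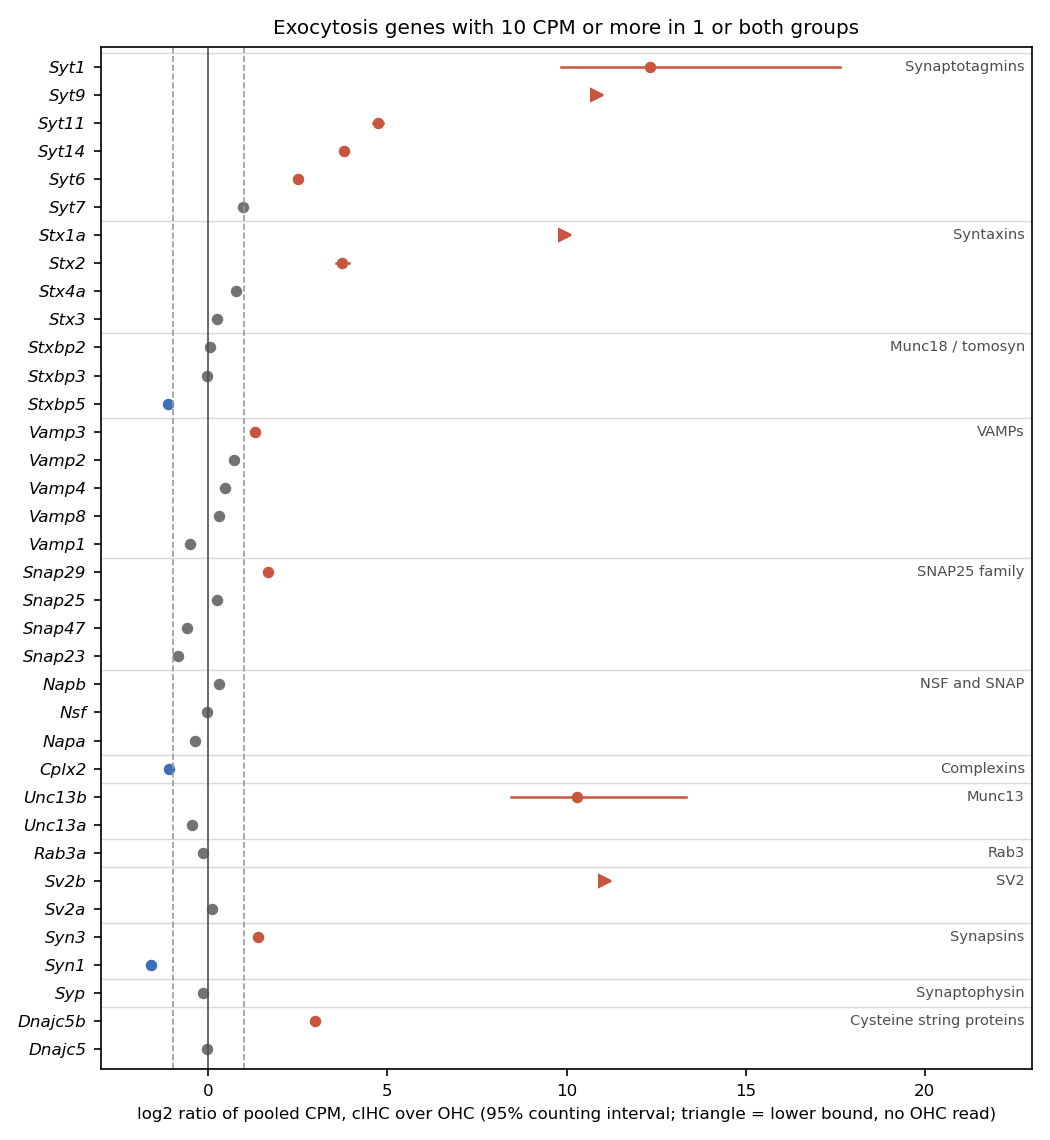
Log2 ratio of the pooled level (CPM), cIHC over OHC, for the 36 exocytosis genes with 10 CPM or more in 1 or both groups, ordered by family. Points are ratios with their 95% counting intervals, triangles are lower bounds for genes with no OHC read, and dashed lines mark a 2-fold difference; 13 genes lie to the right of the lines and 3 to the left.

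Sequence upstream of 4 of these genes is shown. Syt14 was taken as the gene of the 13 with the highest CPM in cIHCs, and Syt9 as a gene with no OHC read. Sv2b and Stx2 were taken because some of their promoters hold the core of the site bound by T-box factors such as Tbx2. RefSeq promoters (GRCm38.p6, 250 bases before to 50 after the start) were matched for 41 of the 55 genes. The 8-letter T-box motif AGGTGTGA, on either strand, was in the promoters of 0 of these 41, against 1.5% of the 27025 genes of the RefSeq table. Its core GGTGTG, on either strand and counted also within the longer motif, was in those of 8, or 19.5%, against 21.4% of all genes. The 8 were Cplx1, Rab3d, Snap23, Snap47, Stx2, Sv2b, Syt2 and Unc13c. A match of letters is no evidence of binding. The promoters of the exocytosis genes were richer in G and C than promoters at large, with a median of 62.5% against 52.7%, and held a median of 19 CpG pairs against 7. The stretches of Syt14, Syt9 and Stx2 lie before the first annotated exon. RefSeq lists 4 starts of Sv2b, and the core was found before 2 of them. The Sv2b stretch shown lies before an inner start, within the gene, and the promoter at the outermost start holds no core. Stx2 also has an inner start, and the promoter there holds no core. Each sequence is given 5′ to 3′ in the direction of the gene, with the core in capitals. Syt14 is from chr1:193035776-193036025 (minus strand), Syt9 from chr7:107370540-107370727 (plus strand), Sv2b from chr7:75308387-75308636 (minus strand) and Stx2 from chr5:129008575-129008822 (minus strand).
Syt14: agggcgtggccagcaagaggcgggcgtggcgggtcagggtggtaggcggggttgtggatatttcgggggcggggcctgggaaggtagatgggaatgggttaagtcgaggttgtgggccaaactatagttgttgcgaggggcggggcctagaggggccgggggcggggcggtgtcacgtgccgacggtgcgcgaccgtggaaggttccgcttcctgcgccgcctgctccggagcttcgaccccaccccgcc
Syt9: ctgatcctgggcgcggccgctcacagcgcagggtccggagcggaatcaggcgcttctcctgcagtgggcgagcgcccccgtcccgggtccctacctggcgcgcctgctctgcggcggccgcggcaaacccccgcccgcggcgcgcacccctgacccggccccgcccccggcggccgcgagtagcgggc
Sv2b: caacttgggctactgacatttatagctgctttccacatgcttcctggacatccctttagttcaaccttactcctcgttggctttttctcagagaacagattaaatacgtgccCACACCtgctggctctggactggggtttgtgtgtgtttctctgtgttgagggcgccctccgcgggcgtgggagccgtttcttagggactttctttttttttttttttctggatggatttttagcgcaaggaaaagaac
Stx2: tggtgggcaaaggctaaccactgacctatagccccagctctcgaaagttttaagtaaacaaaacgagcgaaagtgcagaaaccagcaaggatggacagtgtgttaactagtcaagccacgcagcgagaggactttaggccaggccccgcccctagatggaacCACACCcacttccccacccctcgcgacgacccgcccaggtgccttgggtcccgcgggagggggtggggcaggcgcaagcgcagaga

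The synaptotagmins, the calcium sensors of the fusion step and their relatives, were the family with the most members past 2-fold. Of its 14 members, 6 reached 10 CPM, and 5 of those were at least 2-fold higher in cIHCs, against 26.3% of all genes. However, 4 of the 6 reached 10 CPM in cIHCs alone and so had to be higher there. Summed over the family and corrected for exon length, the pooled level was 7.37 CPM per kb in OHCs against 70.9 CPM per kb in cIHCs. Syt14 made up most of that sum in cIHCs, 52.5%, and was the first in order in both groups. Synaptotagmin 14 is a member that does not bind calcium.

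Syt14 (chr1:192891233-193035775, minus strand, GRCm38) had 0, 0 and 321 CPM as the lowest, median and highest value per OHC, and 32.9, 396 and 1038 CPM per cIHC. Each of the 67 cIHCs had reads, against 12 of 32 OHCs (37.5%, exact Clopper-Pearson 95% interval 21.1 to 56.3), and 42 cIHCs lay above the highest OHC. The pooled level was 32.4 CPM (31.7 to 33.1) in OHCs against 444 CPM (442 to 446) in cIHCs, a log2 ratio of 3.78 (3.75 to 3.81), and the cIHC had the higher value in 97.0% of the 2144 pairs of 1 cIHC and 1 OHC. The groups overlapped because some OHCs held clear amounts. In cells with Y-linked reads the ratio was 2.94, and the 4 OHCs with Xist reads held none of its reads. Syt14 reached 10 CPM in 28.1% of OHCs and in 100% of cIHCs.

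Syt11, which also lacks calcium binding, was at a median of 0 CPM and a highest value of 66.5 CPM in OHCs, and at 0, 21.2 and 282 CPM (lowest, median, highest) in cIHCs. Reads were present in 4 OHCs (12.5%) and 52 cIHCs (77.6%). Its pooled level of 1.78 CPM in OHCs against 47.3 CPM in cIHCs gave a log2 ratio of 4.73 (4.59 to 4.87). Among OHC counts of Syt11, 98.8% lay in 1 cell, and leaving out each group's top cell gave a ratio of 11.03. Syt6 showed the same arrangement: its highest OHC, at 242 CPM, held 99.9% of the OHC counts. By contrast, Syt6 had reads in 48 cIHCs (71.6%), with a median of 4.70 and a highest value of 232 CPM. Its pooled level was 7.32 CPM in OHCs against 41.7 CPM in cIHCs, for a log2 ratio of 2.51 (2.44 to 2.58), or 12.16 with the top cell of either group left out. That 1 OHC is among the 4 with Xist reads, and within cells with Xist reads the Syt6 ratio was -0.74.

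Syt1, which triggers fast release in neurons, and Syt9 were nearly or fully without reads in OHCs. Syt9 (chr7:107370728-107548656) had no read in any OHC (0 of 32 cells, which allows a share of up to 9.38%), and 26 cIHCs (38.8%, 27.1 to 51.5) had reads, with a highest value of 154 CPM. The pooled cIHC level of 22.96 CPM gave a log2 ratio of at least 10.86. Syt1 (chr10:108497650-109010982) had 1 count in all OHCs and 11503 counts in cIHCs, 21.1 CPM, a log2 ratio of 12.32 with an interval of 9.84 to 17.63. Its reads lay in 24 cIHCs (35.8%), of which the highest, at 245 CPM, held 25.7% of the counts. The median of both genes was thus 0 CPM in cIHCs as in OHCs. Syt2 stayed under 10 CPM in both groups, at 2.48 and 3.62 CPM, with reads in 2 OHCs and 14 cIHCs. Its highest OHC was at 65.1 CPM.

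Syt7, the slow sensor with high calcium affinity, was just inside the 2-fold limit: 19.6 CPM in OHCs against 38.7 CPM in cIHCs, for a log2 ratio of 0.98 (0.93 to 1.02). Per cell it ranged from 0 to 199 CPM with a median of 0 in OHCs, and from 0 to 131 CPM with a median of 24.9 in cIHCs. More cIHCs than OHCs had reads, 89.6% against 43.8%. Syt5 had no OHC read and 5.85 CPM in cIHCs, spread over 8 cells. Syt3, Syt12 and Syt13 were at 2.39, 1.12 and 0.397 CPM in cIHCs, each resting on 4 or fewer cells.

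**Figure D2:**
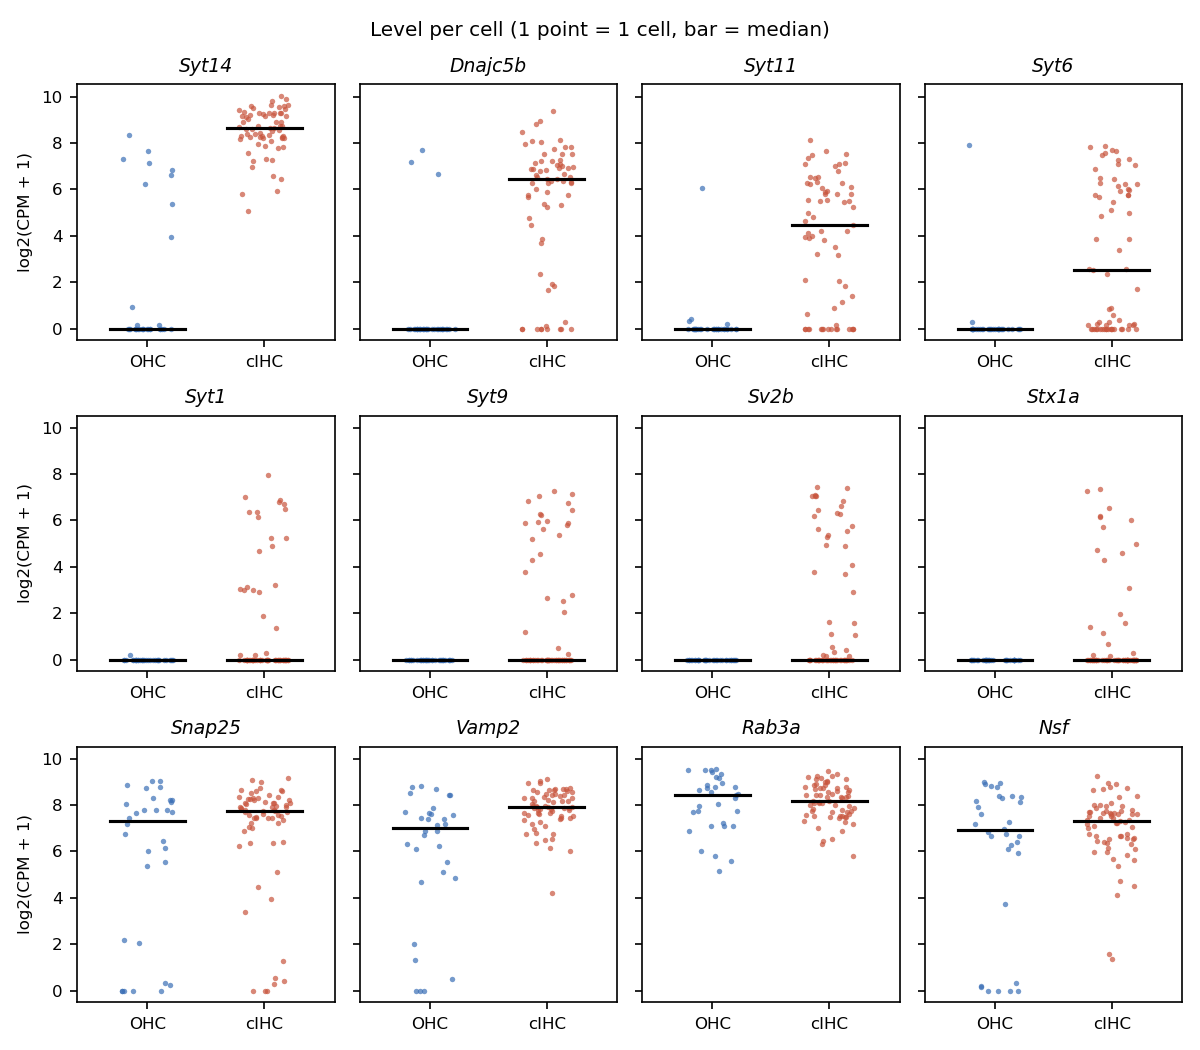
Level of 12 exocytosis genes per cell, as log2(CPM + 1), with 1 point per cell and a bar at the median of 32 OHCs and 67 cIHCs. Syt14 had reads in every cIHC, the middle row shows genes with reads in a part of the cIHCs and almost none in OHCs, and the groups overlap widely for Snap25, Vamp2, Rab3a and Nsf.

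All 4 syntaxins, the target-membrane SNAREs, reached 10 CPM, and 2 were at least 2-fold higher in cIHCs. Stx4a, a plasma membrane syntaxin of many cell types, was the most abundant per length in both groups, with 85.4% of the family's CPM per kb in OHCs and 74.7% in cIHCs. It had 0, 9.70 and 213 CPM (lowest, median, highest) per OHC and 0, 62.4 and 379 CPM per cIHC, and its pooled 45.5 and 77.5 CPM gave a log2 ratio of 0.77 (0.74 to 0.80). Stx1a (chr5:135023482-135051100), the syntaxin of neuronal synapses, had no read in any OHC and was found in 20 cIHCs (29.9%, 19.3 to 42.3) with a highest value of 163 CPM. At 12.4 CPM pooled, its log2 ratio was at least 9.97. Stx2 (chr5:128984557-129008574) had reads in 3 OHCs and 21 cIHCs, 0.975 and 13.1 CPM pooled, a log2 ratio of 3.74 (3.56 to 3.94), with highest values of 24.7 and 195 CPM and medians of 0. One cIHC held 33.05% of its cIHC counts and 1 OHC 68.6% of its OHC counts, and without both the ratio was 4.83. Stx3, the syntaxin of retinal ribbon synapses, was at 17.6 and 20.7 CPM (log2 ratio 0.24).

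Among the partners of syntaxin, Stxbp2 (Munc18-2) led in both groups, with 62.3% and 66.5% of the CPM per kb of this family. It ranged from 0 to 506 CPM with a median of 107 in OHCs and from 0 to 399 CPM with a median of 127 in cIHCs. The groups lay on top of each other: 132 and 135 CPM pooled, a log2 ratio of 0.04 that turned to -0.16 with TMM scaling. Stxbp3 (Munc18c) was likewise close, at 76.2 and 73.9 CPM. Stxbp5, which encodes tomosyn, an inhibitor of SNARE assembly, was lower in cIHCs. Per OHC it had 0, 71.3 and 234 CPM (lowest, median, highest), and per cIHC 0, 17.5 and 197 CPM. The pooled 81.3 and 37.0 CPM gave a log2 ratio of -1.13 (-1.16 to -1.11), although the share of cells with reads was alike, 75% and 74.6%. In cells with Y-linked reads the ratio was -0.36. Stxbp5l was not found in OHCs and reached 2.49 CPM in cIHCs.

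Of the 5 vesicle SNAREs, 4 lay within 2-fold over all cells. Vamp2, the VAMP of synaptic vesicles, had reads in 29 OHCs and all 67 cIHCs, with 0, 129 and 450 CPM (lowest, median, highest) per OHC and 17.5, 242 and 549 CPM per cIHC. Its pooled 156 and 256 CPM gave a log2 ratio of 0.72 (0.70 to 0.73), and the cIHC was higher in 73.9% of pairs. In cells with Y-linked reads its ratio was 1.21. Vamp8 (endobrevin) had 0, 95.5 and 331 CPM per OHC and 15.6, 120 and 424 CPM per cIHC, a log2 ratio of 0.30, which was 1.06 in cells with Xist reads and -0.18 in cells with Y-linked reads. By exon length Vamp8 came first in OHCs with 48.3 CPM per kb and Vamp2 first in cIHCs with 67.3 CPM per kb, but by the longest transcript Vamp2 was first in both. Vamp3 (cellubrevin), which serves recycling endosomes in many cells, was the VAMP past 2-fold over all cells. It had reads in 8 OHCs (25%) and 45 cIHCs (67.2%), with medians of 0 and 32.3 CPM and highest values of 281 and 267 CPM. The pooled 19.4 and 47.7 CPM gave a log2 ratio of 1.30 (1.25 to 1.34), and the highest OHC alone held 45.03% of the OHC counts, so that leaving out the top cells gave 2.06. Vamp4 (log2 ratio 0.47) and Vamp1 (-0.50) lay within 2-fold.

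In the SNAP25 family the order changed between the groups. Snap47 led in OHCs with 57.1% of the family's CPM per kb and Snap25 in cIHCs with 46.2%, where Snap47 had 43.3%. Snap25, the neuronal member, was at 182 CPM in OHCs against 217 CPM in cIHCs, for a log2 ratio of 0.25 (0.23 to 0.27). Its lowest, median and highest values were 0, 159 and 529 CPM per OHC and 0, 213 and 567 CPM per cIHC. Snap47 had 0, 68.1 and 528 CPM per OHC and 0, 75.8 and 288 CPM per cIHC, and its log2 ratio of the pooled levels was -0.59 (-0.61 to -0.57), or -1.35 in cells with Y-linked reads. For Snap47 the median cell was slightly higher in cIHCs while the pooled level was lower, and its highest OHC lay above all cIHCs. Snap29, which acts on inner membranes, was higher in cIHCs at 13.96 CPM against 4.38 CPM, a log2 ratio of 1.67 (1.58 to 1.77). It had reads in 9 OHCs and 38 cIHCs, with medians of 0 and 2.37 CPM and highest values of 42.1 and 91.8 CPM. In cells with Xist reads its ratio was 0.73. Snap23 was at 24.9 and 13.9 CPM (log2 ratio -0.84), with 64.1% of the OHC counts in 1 cell.

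The disassembly machinery was close to level. Napa, which encodes alpha-SNAP, was the most abundant of the 3 per length and ranged from 0.142 to 1358 CPM with a median of 343 in OHCs and from 0 to 1049 CPM with a median of 280 in cIHCs. Its pooled level was 392 and 300.0 CPM, a log2 ratio of -0.39 (-0.40 to -0.38), and the direction differed between cells with Xist reads (0.46) and cells with Y-linked reads (-0.997). Nsf was at 182 and 178 CPM (log2 ratio -0.03) and Napb, for beta-SNAP, at 53.8 and 65.5 CPM (0.28).

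Of the complexins, which clamp and support the SNARE complex, Cplx2 was the one above 10 CPM. Per cell it had 0, 1.39 and 326 CPM (lowest, median, highest) in OHCs and 0, 1.43 and 242 CPM in cIHCs. The pooled 34.7 and 16.2 CPM gave a log2 ratio of -1.09 (-1.14 to -1.05), which the medians do not share and which was -0.13 in cells with Y-linked reads. Cplx2 reached 10 CPM in 43.8% of OHCs and 38.8% of cIHCs, and reads were present in 81.2% and 71.6%. Cplx1 had 1 count in OHCs and 0.917 CPM in cIHCs. The complexins of retinal ribbon synapses, Cplx3 and Cplx4, were almost absent: Cplx3 had counts in 1 OHC and none in cIHCs, and Cplx4 had 4 counts in 1 cIHC.

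Among the Munc13 priming factors, Unc13a led in both groups, at 27.8 CPM in OHCs against 20.3 CPM in cIHCs, for a log2 ratio of -0.46 (-0.50 to -0.41). It had a median of 0 and a highest value of 317 CPM in OHCs, and a median of 0.987 and a highest value of 179 CPM in cIHCs. One OHC held 33.5% of the counts of its group, and with the top cell of either group left out the ratio was -0.10. In cells with Xist reads it was -1.86 and in cells with Y-linked reads -0.93. Unc13b (chr4:43058953-43264871), for Munc13-2, had 2 counts in all OHCs and 5646 counts in 17 cIHCs (25.4%, 15.5 to 37.5), with a highest value of 179 CPM and a median of 0. That is 10.4 CPM, just above the minimum, and a log2 ratio of 10.29 (8.44 to 13.34). Unc13c was found in 1 cIHC.

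Rab3a, the vesicle GTPase, had reads in all 99 cells at like levels. Its lowest, median and highest values were 35.05, 348 and 749 CPM per OHC and 54.3, 290 and 710 CPM per cIHC. The pooled 355 and 321 CPM gave a log2 ratio of -0.15 (-0.16 to -0.13), and the cIHC was higher in 46.8% of pairs. It made up 98.2% of the CPM per kb of the Rab3 family in cIHCs and nearly all of it in OHCs. Rab3b had no OHC read and 6.69 CPM in 13 cIHCs, and Rab3c and Rab3d were at 0.838 and 2.95 CPM in cIHCs.

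Of the vesicle membrane glycoproteins of the SV2 family, Sv2a was close to level and Sv2b was not. Sv2a had 0, 0 and 281 CPM (lowest, median, highest) per OHC and 0, 5.45 and 211 CPM per cIHC. Its pooled 29.5 and 31.3 CPM gave a log2 ratio of 0.09, which was -0.11 with TMM scaling, 1.13 in cells with Xist reads and -1.63 in cells with Y-linked reads. Sv2b (chr7:75114894-75309262) had no read in any OHC and was found in 33 cIHCs (49.3%, 36.8 to 61.8), with a median of 0 and a highest value of 172 CPM. The pooled 26.8 CPM gave a log2 ratio of at least 11.08. Per length, Sv2b had 32.2% of the SV2 level in cIHCs. Together with Syt9 and Stx1a, Sv2b is 1 of 3 genes among the 36 with no read in any OHC, which is the case for 2.28% of all genes at 10 CPM.

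The order of the synapsins, which tether vesicles to the cytoskeleton, differed between the groups. Syn1 had 86.6% of the family's CPM per kb in OHCs and Syn3 55.02% in cIHCs. Syn1 (chrX:20860511-20921004) was at 18.5 CPM in OHCs against 6.12 CPM in cIHCs, for a log2 ratio of -1.59 (-1.66 to -1.53), with medians of 0 and highest values of 202 and 87.3 CPM. Reads were in 37.5% of OHCs and 31.3% of cIHCs. In cells with Y-linked reads the Syn1 levels were 9.19 and 8.41 CPM, a ratio of -0.13. Syn3 (chr10:86055125-86498896) was at 10.6 and 27.8 CPM, a log2 ratio of 1.39 (1.33 to 1.46). It had reads in 9 OHCs and 44 cIHCs, with medians of 0 and 6.06 CPM and highest values of 152 and 215 CPM. One OHC held 44.6% of the OHC counts, leaving out the top cells gave a ratio of 2.06, and cells with Xist reads gave 3.52. Of its exon length, 14.1% overlaps Timp3 on the opposite strand, and Timp3 was at 4.42 and 13.6 CPM; the strand setting of the counting is not given in the sources used here, so reads of the shared stretch cannot be assigned. Synaptophysin, Syp, was at 32.3 and 29.1 CPM, with 0, 6.71 and 137 CPM (lowest, median, highest) per OHC and 0, 20.5 and 144 CPM per cIHC.

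The cysteine string proteins are chaperones on the vesicle that keep SNAP25 usable. Dnajc5, the general form, was level: 0, 59.1 and 321 CPM (lowest, median, highest) per OHC and 0, 81.3 and 351 CPM per cIHC, and 95.2 against 92.7 CPM pooled (log2 ratio -0.04). Dnajc5b (chr3:19508595-19610862), the beta form, had reads in 3 OHCs (9.38%, 1.98 to 25.0) and 58 cIHCs (86.6%, 76.0 to 93.7). Its median was 0 in OHCs with a highest value of 208 CPM, against a median of 86.7 and a highest value of 658 CPM in cIHCs, where the lowest was 0. Pooled, 14.4 CPM (13.9 to 14.9) and 114 CPM (113 to 115) gave a log2 ratio of 2.99 (2.94 to 3.04), and the cIHC was higher in 81.1% of pairs. One of the 3 OHCs held 49.5% of the OHC counts, the ratio without the top cells was 3.81, and in cells with Xist reads it was 2.05. The beta form made up 45.5% of the 2 genes' CPM per kb in OHCs and 87.2% in cIHCs, the OHC share resting on those 3 cells.

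**Figure D3:**
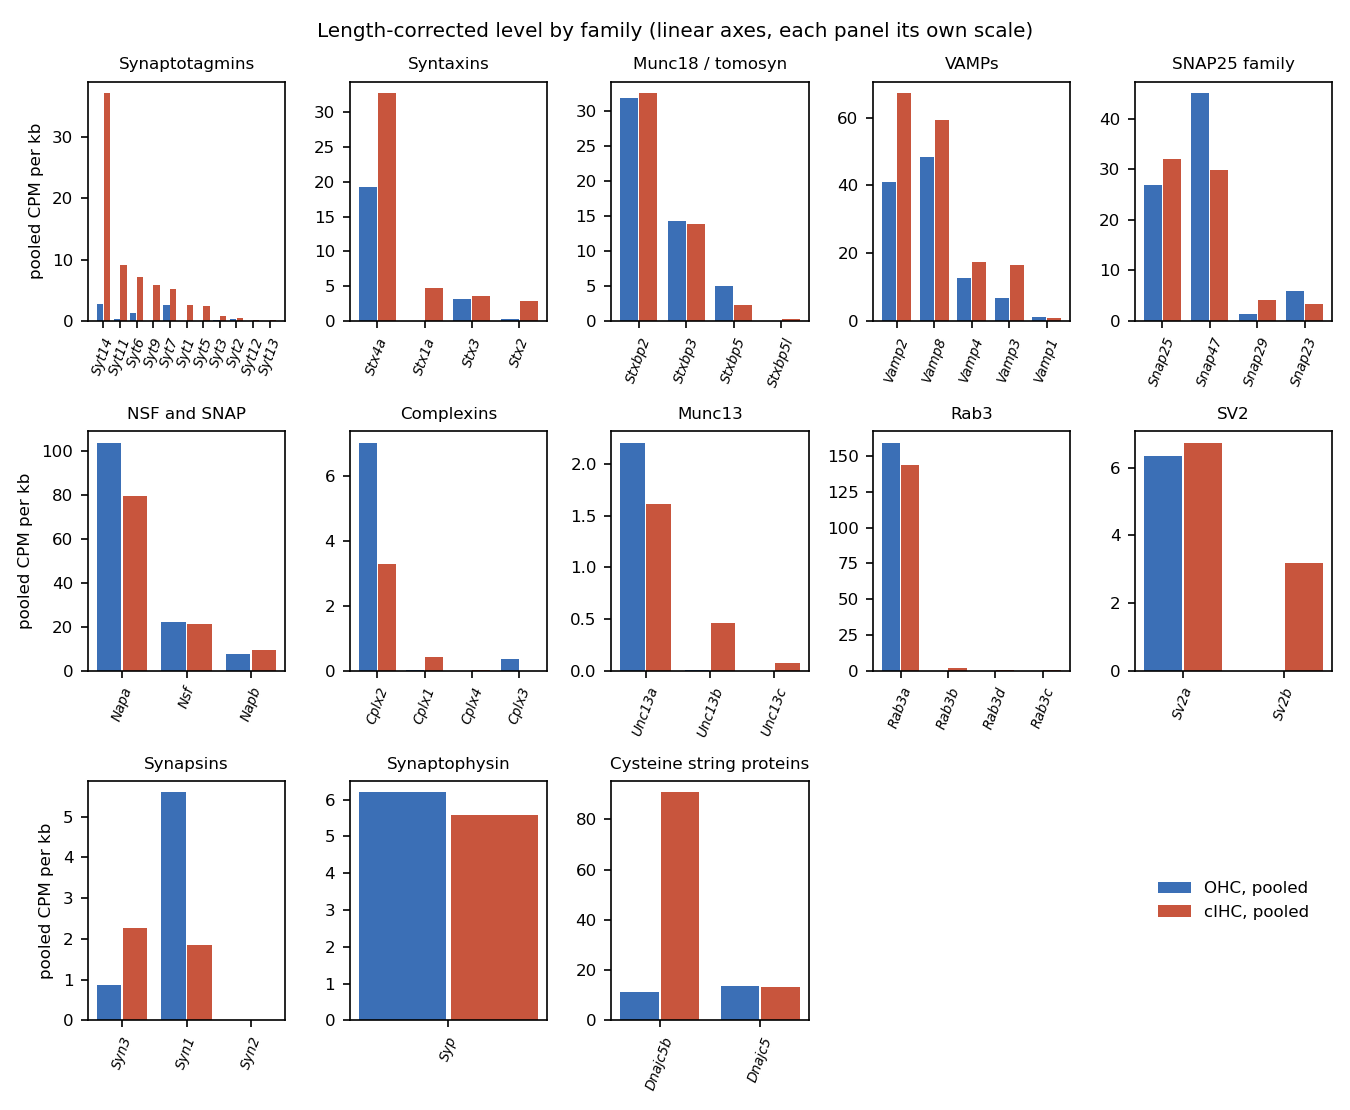
Pooled level per length (CPM per kb of exon, linear axes from 0, each panel with its own scale) of the exocytosis genes by family, in OHCs and cIHCs. The leading member differs between the groups for the VAMP, SNAP25, synapsin and cysteine string protein families, and Syt14 and Dnajc5b have the tallest cIHC bars of their panels.

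The cells of each group were then examined one by one. A median of 16 exocytosis genes had reads in an OHC (range 12 to 22) and 27 in a cIHC (19 to 37). Thinned to a common depth of 5770000 reads, which left 29 OHCs and 66 cIHCs, the medians were 16 and 26. Genes at large were also found more often in cIHCs, so the exocytosis genes were 0.272% of the genes with reads in the median OHC and 0.312% in the median cIHC. For 1261 genes of like level (10 to 100 CPM in both groups and a log2 ratio within 0.25), the mean share of cells with reads was 49.6% for OHCs and 70.9% for cIHCs, and for the 5 exocytosis genes among them 52.5% and 76.7%. A larger share of cIHCs with reads therefore goes with cIHCs in general, and its part in single genes was not tested. Synaptotagmins at 10 CPM or more numbered 0 to 2 per OHC with a median of 1, and 1 to 6 per cIHC with a median of 3.

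**Figure D4:**
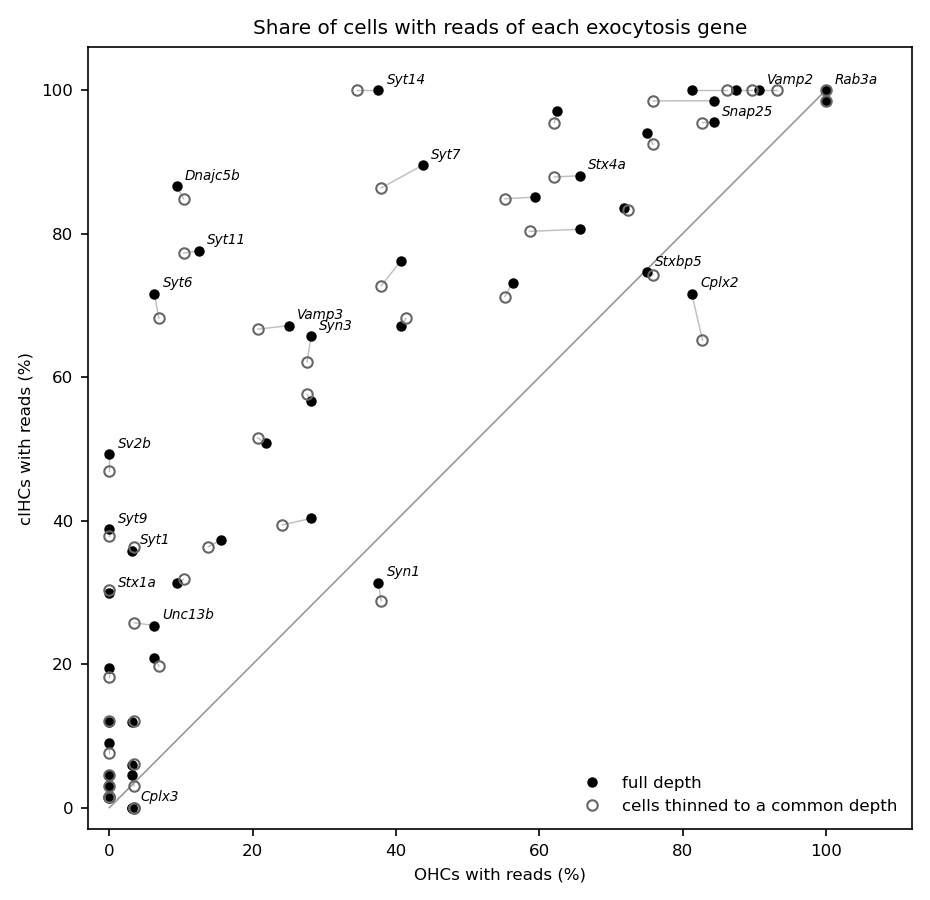
Share of OHCs (x axis, %) and of cIHCs (y axis, %) with reads of each exocytosis gene, at full depth (filled) and after thinning to a common depth (open), with the line of equal shares. Most genes lie above the line. Cplx2, Syn1, Cplx3, Syn2, Napa and Stxbp5 lie below it, and Syt14 goes from 37.5% of OHCs to 100% of cIHCs.

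Whether genes with almost no OHC read came together in the same cIHCs was looked at for Syt1, Syt9, Stx1a, Unc13b and Sv2b, which had at most 2 counts in all OHCs. At 10 CPM, 25 cIHCs held none of these 5, 20 held 1 of them, 14 held 2, 6 held 3, 1 held 4 and 1 held all 5. The choice of genes already kept every OHC at none. Most cIHCs with any of the 5 thus held 1 or 2 of them. Taken singly, Syt1 reached 10 CPM in 19.4% of cIHCs, Syt9 in 28.4%, Stx1a in 16.4%, Unc13b in 14.9% and Sv2b in 32.8%. How many cells would hold several of the 5 if the genes were unlinked was not worked out. The counts therefore do not say whether the 5 came together or apart. Across the 67 cIHCs, Spearman correlations of log2(CPM + 1) between 27 genes with reads in 50% of the cells or more had a median of 0.01 and ran from -0.29 (Stx4a with Vamp4) to 0.40 (Rab3a with Dnajc5b). With Tbx2, the 27 correlations had a median of 0.07 and ran from -0.24 (Syt6) to 0.31 (Stxbp2). In the 32 OHCs, 16 genes gave correlations from -0.45 to 0.37. No correlation reached 0.5 in size. The points share library depth and animals that are not named, and in sparse counts such values are a description.

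**Figure D5:**
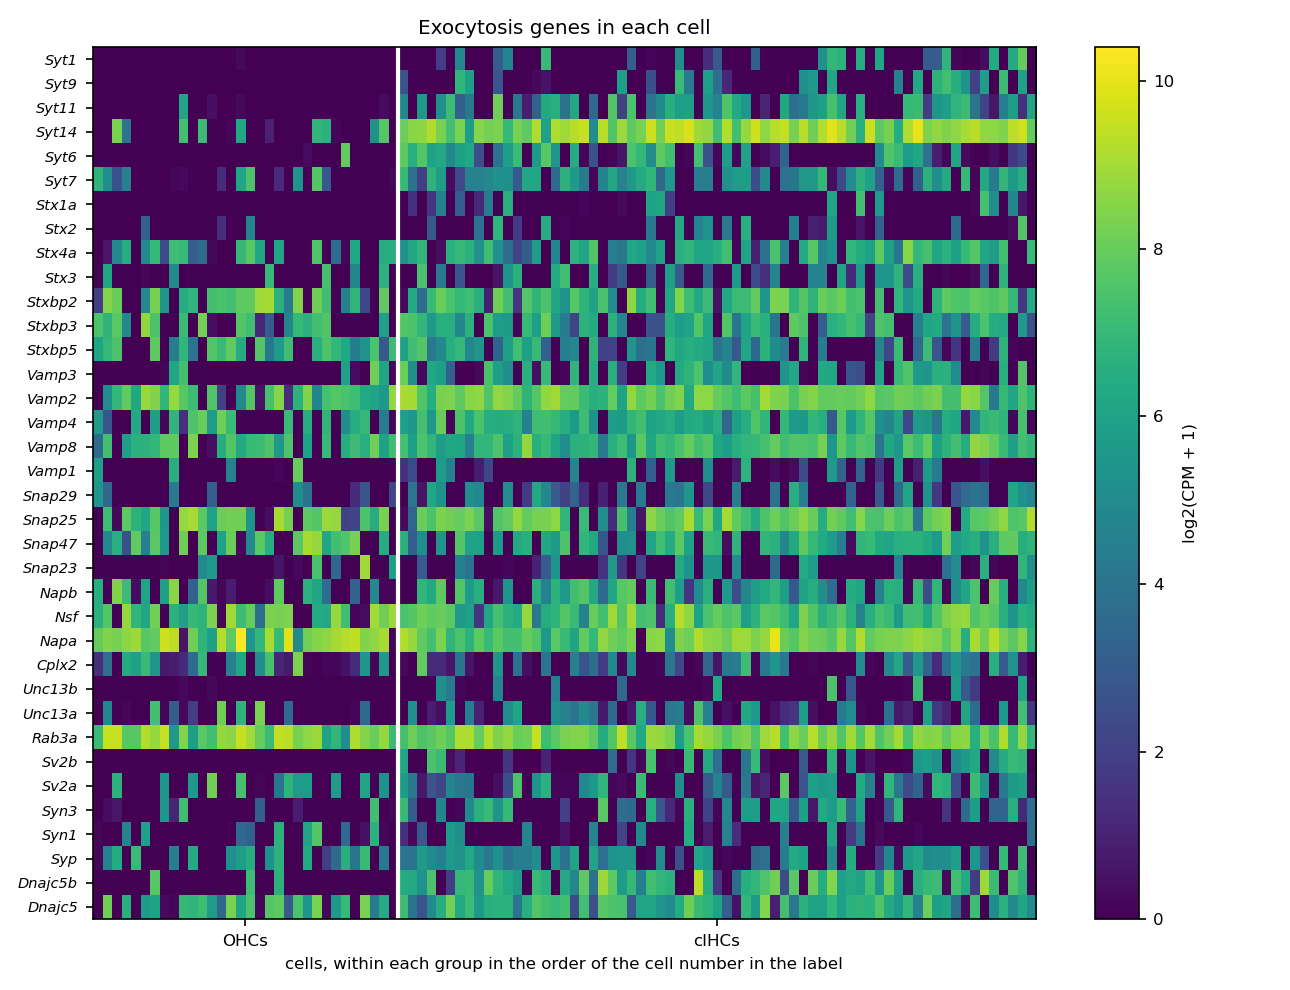
Level of the 36 exocytosis genes (rows, by family) in each of 32 OHCs and 67 cIHCs (columns, by the number in the label) as log2(CPM + 1). Rab3a is filled across both groups, and Napa has reads in 32 OHCs and 66 cIHCs. Syt14 is filled across the cIHCs, and Dnajc5b has reads in 58 of them. Syt1, Syt9, Stx1a, Unc13b and Sv2b have reads in a part of the cIHCs, from 17 cells (Unc13b) to 33 cells (Sv2b).

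The 2 groups' cells with Xist reads and with Y-linked reads were compared apart. In the 4 OHCs and 55 cIHCs with Xist reads, 19 of the 36 exocytosis genes were at least 2-fold higher in cIHCs. Among these were 11 of the 13, and 5 of the 36 were at least 2-fold lower, among them all 3. The shares of all genes that were so were 44.4% and 17%. In the 24 OHCs and 12 cIHCs with Y-linked reads, 15 of the 36 were higher, among them all 13. Another 3 of the 36 were lower, with 0 of the 3 named above, and the shares of all genes were 27.4% and 20.4%. The split by Xist rests on 4 OHCs, and several genes within 2-fold over all cells left that range in it, among them Stx4a at 1.14 and Sv2a at 1.13. Both splits use parts of the same cells, so they are no separate check of the 13 genes. Of the 36 genes, 9 reached 10 CPM in cIHCs alone, and some of these had almost no OHC read in any cell. In the cells with Y-linked reads the lower level of Stxbp5, Cplx2 and Syn1 fell within 2-fold.

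A wider list of 99 genes around the exocytosis machinery was counted in the same way. Of these, 74 reached 10 CPM, 19 (25.7%) were at least 2-fold higher in cIHCs and 10 (13.5%) at least 2-fold lower, close to the 26.3% and 14.3% of all genes. Among 28 partners of fusion and active zone genes, 11 reached 10 CPM, 3 were higher and 3 lower. The higher ones held the scaffolds of the active zone Pclo (piccolo), at 13.9 and 53.6 CPM with reads in 14 OHCs and 62 cIHCs, and Bsn (bassoon), at 6.06 and 14.2 CPM. The third was Rab3il1, at 0.359 and 12.3 CPM. The lower ones were Rab3ip, an exchange factor for Rab proteins, at 642 and 269 CPM, Unc13d, at 10.8 and 1.90 CPM, and Sytl1, at 16.01 and 2.92 CPM. Of 13 other vesicle membrane genes, 9 reached 10 CPM. Svop, Syngr1 and Scamp1 were higher and Syngr2 lower, so that the 2 synaptogyrins differed in opposite directions, Syngr1 at 18.2 and 58.6 CPM and Syngr2 at 52.6 and 5.71 CPM. Of 28 SNAREs of inner membranes and their partners, 26 reached 10 CPM, 8 were higher and 0 lower. Stx6, of the Golgi and endosomes, was at 46.96 and 171 CPM, and Stx17, the syntaxin of autophagosomes, was at 7.16 and 28.8 CPM.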

How the data were processed

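The authors deposited 1 table of whole-number read counts per gene and cell for 99 picked single cells, made with the Smart-Seq HT kit per the labels' protocols. The submitters' processing notes name HISAT2 2.2.1, StringTie 2.2.1, featureCounts 2.0.1 and genome build mm10; the strand setting is not given in the sources used here. From the deposited counts, cells were summed to 1 sample per group, and pooled CPM, log2 ratios and exact intervals were computed (Python 3.11.15, scipy 1.17.1). There were 0 unmapped and 0 identical columns, all cells were used, and no doublet caller was run. Exon lengths and coordinates came from GENCODE M21 (GRCm38). Described in full are genes past 2-fold and, in each family, the leading gene per length. The genes, lists and tests were chosen with earlier results of these data known. Alternatives were the mean or median of cells, each gene without its highest cell, TMM (edgeR 4.0.16) and median-of-ratios scaling, other totals, minimums and thresholds, and thinned cells. The ratio steps were tested on simulated data.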

Additional observations from a re-analysis of the deposited data

How the results depend on the processing

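The median log2 ratio of the exocytosis genes, 0.29, was 0.37 over means of single cells, 2.69 with the median per cell, 0.59 without the highest cell of each gene, 0.10 with TMM, 0.088 with median-of-ratios scaling, 0.25 without mitochondrial genes, 0.21 without the 10 most abundant genes, 1.10 in cells with Xist reads, 0.28 in cells with Y-linked reads, 0.49 in thinned cells, 0.63 with a minimum of 1 CPM, 0.14 with 50 CPM and 0.77 with no minimum beyond 3 counts. TMM and median-of-ratios scaling moved the median of all genes by -0.19 and -0.20, the median per cell by 3.13, leaving out the highest cell by 0.23 and cells with Xist reads by 0.39. The count of 13 higher genes became 2 at 50 CPM and 23 with no minimum. The count of 3 lower genes became 1 with the median per cell, 5 in cells with Xist reads, 1 at 50 CPM and 0 at a log2 threshold of 2. The ratio of Syt6 was -0.74 in cells with Xist reads, where 1 of 4 OHCs held nearly all its counts, and that of Cplx2 was 0.039 with the median per cell. With the median per cell, a median of 0 was raised to 0.0124 CPM for OHCs or 0.00551 CPM for cIHCs. Genes at that level in both groups were left out. Ratios with a raised median thus depend on that level, such as 14.96 for Syt14, and cannot be set beside the other settings. The cause of the other changes was not tested. Of the ratios of single genes under the alternatives, 61 stayed within their counting interval, 210 moved beyond it, and 2 past 2-fold changed sign. By the longest transcript, 11 of 12 families kept their leading genes, the VAMPs being the exception. A sum of 0 counts over a group, set to 3 counts, allows a level of at most 0.0124 CPM for OHCs, or 0.00551 CPM for cIHCs. The upper limits of the exact Poisson 95% interval for 0 counts were 0.0152 CPM for OHCs and 0.00678 CPM for cIHCs. No paired analysis was possible because labels number the cells within each group and no test was made.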

Other observations

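Genes of vesicle retrieval, the step that follows exocytosis, were counted too. Of 30 such genes, 28 reached 10 CPM, 5 (17.9%) were at least 2-fold higher and 6 (21.4%) at least 2-fold lower in cIHCs, against 26.3% and 14.3% of all genes, and 17 lay within 2-fold. The median log2 ratio over the 28 was 0.02. Paralogs with unlike ratios are given as examples, picked after their values were seen. Among the endophilins, which bend the membrane of the budding vesicle, Sh3gl3 was at 1016 CPM in OHCs against 65.5 CPM in cIHCs, for a log2 ratio of -3.96 (95% counting interval -3.97 to -3.94). Its lowest, median and highest values were 254, 1034 and 1893 CPM per OHC and 0, 42.0 and 289 CPM per cIHC, and the cIHC was higher in 0.0933% of the 2144 pairs. Sh3gl2, the brain endophilin, went the other way, with 4.02 and 82.6 CPM (4.36, 4.27 to 4.45), and reads in 5 OHCs and 60 cIHCs. Sh3gl1 was at 250.3 and 66.1 CPM.

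The dynamins, which cut the vesicle from the membrane, held a like pair. Dnm1, the dynamin of nerve terminals, had 0, 25.3 and 227 CPM (lowest, median, highest) per OHC and 35.4, 519 and 958 CPM per cIHC, a log2 ratio of the pooled levels of 3.07 (3.04 to 3.09). Dnm3 had 14.3, 407 and 913 CPM per OHC and 0, 74.8 and 284 CPM per cIHC, a log2 ratio of -2.33 (-2.35 to -2.32). Dnm2, the general form, was at 81.9 and 88.6 CPM. The epsins, adaptors of clathrin coats, held Epn2, at 10.0 and 95.7 CPM, Epn3, at 184 and 22.4 CPM, and Epn1, at 19.9 and 16.1 CPM. Bin1 was at 105 and 344 CPM and Picalm at 23.2 and 57.2 CPM, whereas the adaptor subunit Ap2a2 was at 214 and 43.4 CPM and the clathrin light chain Cltb at 582 and 282 CPM. The differences were not tested.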
